A study of Mus musculus with 45 samples.

Results

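The genes described here are the 138 protein-coding mouse genes whose symbols begin with Kcn, Cacna, Cacnb or Cacng, or with Hcn or Scn followed by a digit, out of 21938 protein-coding genes of the GENCODE M21 annotation (GRCm38). They encode the pore-forming and accessory subunits of potassium, voltage-gated calcium, voltage-gated sodium and hyperpolarization-activated channels. A gene was said to have a peak when a summit of Capicua (CIC) binding lay in its gene body or within 5 kb upstream. A summit within 1 kb of one of the gene's own start sites was called a promoter summit, and the others were divided into intron, exon and upstream summits by the annotation of that gene.

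CIC is a transcriptional repressor that recognises a short octamer and is the partner of ATXN1, the protein carrying an expanded polyglutamine tract in spinocerebellar ataxia type 1. Voltage-gated sodium and calcium channels depolarise a neuron, potassium channels repolarise it, and their balance sets the pacemaker firing of Purkinje cells and the output of the cerebellar nuclei. Several of these genes, among them Cacna1a, are themselves mutated in inherited ataxias.

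CUT&RUN, an assay that uses an antibody to guide a DNA-cutting enzyme to the sites of a protein, was performed for CIC on cerebellar nuclei from mice at 10 weeks of age on a C57BL/6 background. The groups were WT mice (n = 4), Atxn1 154Q/2Q mice with an expanded knock-in allele opposite a normal one (154Q, n = 4), Atxn1 154Q[V591A;S602D]/2Q mice with the further changes V591A and S602D, on the expanded allele, in the domain that contacts CIC (154Q[V591A;S602D], n = 3), and Engrailed1-Cre;Cic fl/fl mice as negative control (CIC KO, n = 4). The paper states that the control genotype removes Cic expression across the whole cerebellum. Its Cre is active in the Engrailed1 lineage, so any cells outside that lineage would keep Cic, which was not checked here. Each deposited list compares the merged animals of a genotype with the merged CIC KO animals. A list is therefore a single observation per genotype, all 3 lists share the control, and no spread between animals or p-value can be given. Intervals below are 95% Wilson intervals that cover counting error over genes or peaks only. Nuclei of all cerebellar cell types were pooled, so fewer cells with a bound site and less binding per cell cannot be told apart. The tissue label was not checked against cell type markers, since the lists hold no expression values.

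After a common repeat filter the lists held 4432 peaks (WT), 1690 peaks (154Q) and 848 peaks (154Q[V591A;S602D]). Channel genes held 43, 12 and 6 of these peaks. Fragment pileups could be recovered for WT and 154Q[V591A;S602D], where a summit held 30 and 27 fragments at the median, and the lowest control background was 6.59 and 5.28 fragments. No pileup could be recovered for 154Q. The −log10 q values rise with depth, so they are given beside ranks within a list and are not compared between lists.

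A single channel gene, Kcnb2, had the CIC octamer under a site present in all 3 lists, and a single other one, Scn8a, had it under a site present in WT and 154Q. Cacna1e had the only other site in all 3 lists, and Cacna1d had the highest-ranked channel gene peak of the WT list; neither carried the octamer near its summit. The octamer searched is TGAATGAA, TGAATGGA, TCAATGAA or TCAATGGA on either strand. The sequences below cover 50 bp on either side of the summit, are the plus strand of GRCm38.p6 from RefSeq, and show the octamer in capitals. They are given to let the octamer sites be compared with the sites that lack it. On this strand Kcnb2 has TCCATTCA, the reverse complement of TGAATGGA, and Scn8a has TTCATTCA, the reverse complement of TGAATGAA.
Kcnb2, promoter class within the first intron, 154Q summit, chr1:15288098-15288198: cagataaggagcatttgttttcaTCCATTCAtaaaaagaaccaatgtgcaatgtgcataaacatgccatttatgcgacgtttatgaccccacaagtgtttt
Scn8a, intron, 154Q summit, chr15:100910515-100910615: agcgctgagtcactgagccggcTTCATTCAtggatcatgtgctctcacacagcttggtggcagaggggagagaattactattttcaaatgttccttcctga
Cacna1e, intron, WT summit, chr1:154861427-154861527: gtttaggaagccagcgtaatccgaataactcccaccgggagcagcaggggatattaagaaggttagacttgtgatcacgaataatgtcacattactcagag
Cacna1d, intron, WT summit, chr14:30218320-30218420: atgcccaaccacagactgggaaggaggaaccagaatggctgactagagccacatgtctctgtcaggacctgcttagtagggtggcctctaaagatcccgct

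To ask how often CIC occupied channel genes, the genes with any peak were counted first. In WT, 24 of 138 channel genes had a peak, that is 17.4% (12.0 to 24.6%), against 16.2% of all protein-coding genes. In 154Q, 8 genes had one, or 5.8% (2.97 to 11%), against a background of 6.96%. In 154Q[V591A;S602D], 6 genes had one, or 4.35% (2.01 to 9.16%), against 3.72%. The share of channel genes with a peak was thus near the background in each list. In all, 25 channel genes had a peak in at least 1 list (18.1%, against 18.0% of all genes) and 113 had none.

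The class of peak differed from the background in WT. A promoter peak was found at 6 channel genes in WT (4.35%, 2.01 to 9.16%), against 11.7% of all genes. Intron peaks showed the opposite order, with 18 channel genes in WT (13.0%, 8.41 to 19.7%) against 4.21% of all genes. In 154Q, 2 channel genes had a promoter peak (1.45%, 0.398 to 5.13%) against 4.88% of all genes, and 6 had an intron peak (4.35%, 2.01 to 9.16%) against 1.65%. In 154Q[V591A;S602D] the counts were 5 promoter genes (3.62%, 1.56 to 8.2%) against 2.81%, and 1 intron gene (0.725%, 0.128 to 3.99%) against 0.702%.

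Channel genes are long, with a median gene length of 42.0 kb against 17.4 kb for all protein-coding genes, so the counts were set beside the number expected from genes of the same length. Genes were divided into 10 equal classes, by gene length for promoter peaks and by summed intron length for intron peaks. The 6 WT promoter genes (interval 2.77 to 12.6 genes) compared with 17.0 expected, a ratio of 0.354. With the lists cut to 848 peaks each, the single WT promoter gene left (0.177 to 5.51) had an expectation of 4.52, inside the interval. The 18 WT intron genes (11.6 to 27.2) compared with 10.7 expected, a ratio of 1.68. At a q under 0.001 the 11 WT intron genes left (6.22 to 18.9) had an expectation of 6.71, also inside the interval, as was that of the 3 genes left (1.02 to 8.55) at 848 peaks, 1.79. In 154Q, 2 promoter genes (0.55 to 7.08) compared with 7.06 expected and 6 intron genes (2.77 to 12.6) with 4.4 expected, so that the promoter expectation lay at the upper bound and the intron expectation inside the interval. In 154Q[V591A;S602D], 5 promoter genes compared with 4.02 expected and 1 intron gene with 1.66, both inside their intervals.

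**Figure D1:**
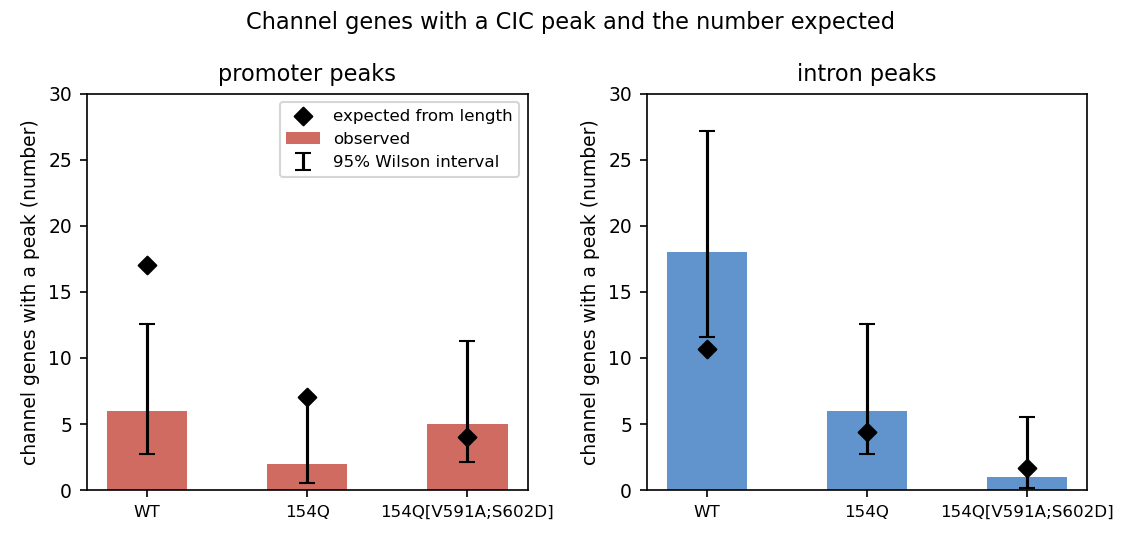
Number of the 138 channel genes with a promoter peak (left) or an intron peak (right) in each list. Bars are observed counts, lines their 95% Wilson intervals and diamonds the number expected from gene or intron length; the WT diamond lies above the promoter interval (17.0 against 2.77 to 12.6) and below the intron interval (10.7 against 11.6 to 27.2).

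Promoters were also matched by GC content instead of length, an alternative chosen after the data were seen. RefSeq promoter sequences, 300 bp long, were matched by symbol for 101 of the 138 genes, with a median GC content of 62.7% against 57.7% for all genes matched. Among these 101 genes, 4 had a WT promoter peak (1.57 to 9.84) against 15.3 expected, a ratio of 0.262. In 154Q a single gene had one (0.177 to 5.45) against 6.44 expected, a ratio of 0.155, so that the expectation lay just outside the interval by GC content and just inside it by length. In 154Q[V591A;S602D] the ratio was 0.794, below 1, whereas the length-based ratio of 1.24 lay above 1. With promoters limited to 500 bp from a start site the 154Q[V591A;S602D] promoter ratio fell to 0.275 and its intron ratio rose from 0.602 to 2.11, and at a q under 0.001 the intron ratio was 1.21, so this list gave no stable direction.

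The intron peaks of WT came mostly from the longest genes. In the class of longest summed introns, with a median of 179 kb, 13 of 42 channel genes had a WT intron peak (31.0%), against 17.7% of all genes in that class. In the same class, 3 of the 42 had a 154Q intron peak (7.14%), against 7.52%. Per length of intron, channel genes held 1.78 WT peaks per Mb against 1.36 for all genes, 0.553 154Q peaks per Mb against 0.441, and 0.0615 154Q[V591A;S602D] peaks per Mb against 0.175, the last resting on 1 peak.

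**Figure D2:**
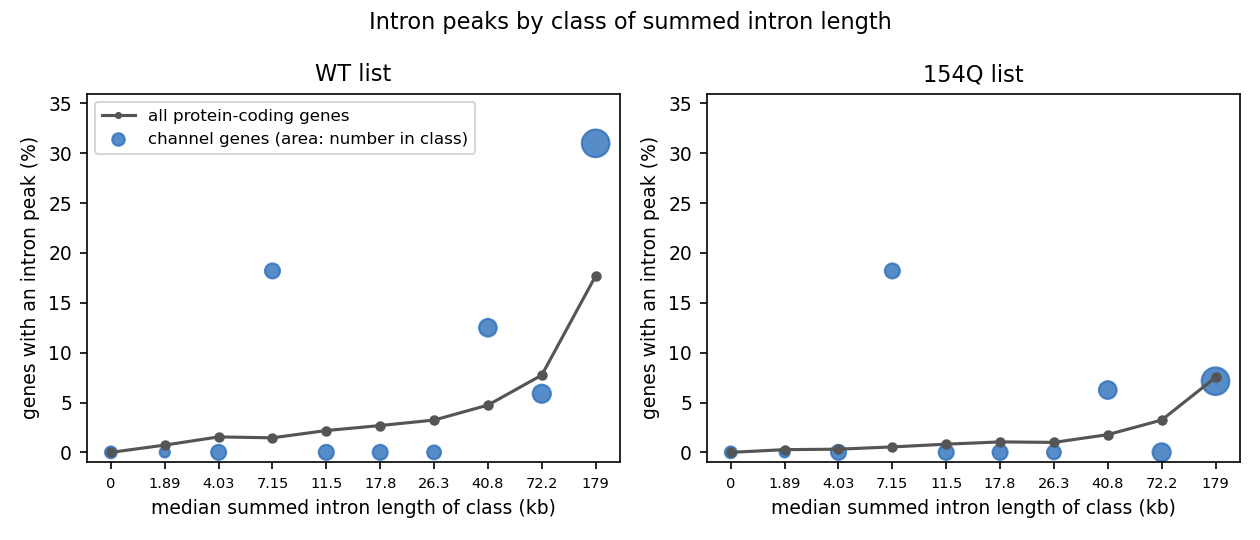
Share of genes with an intron peak (%) in 10 classes of summed intron length (x axis, class median in kb) for the WT and 154Q lists. The line is all protein-coding genes and the circles are channel genes, with area set by the number of channel genes in the class; in the longest class the WT circle stands at 31.0% against 17.7% on the line, and the 154Q circle at 7.14% against 7.52%.

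Promoter summits at channel genes mostly lay far from the start site. The distance of the nearest summit had a median of 861 bp over the 6 WT promoter genes, against 111 bp over the 2570 WT promoter genes of the whole genome, and of 867 bp over the 5 genes of 154Q[V591A;S602D] against 131 bp over 617 genes. In WT, 4 of the 6 channel genes had their nearest summit over 500 bp away, against 6.85% of all promoter genes, and in 154Q[V591A;S602D] 4 of 5 did, against 8.75%. In 154Q the distances were 222 bp at Scn2a and 410 bp at Kcnb2. Of the 15 promoter summits in channel genes over the 3 lists, 11 lay in an intron (73.3%, 48.0 to 89.1%), against 20.8% of the promoter summits of all genes. Sites found in several lists, such as that of Kcnb2, count more than once here. Limiting promoters to 500 bp left 2 WT genes, among them Kcnc1.

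**Figure D3:**
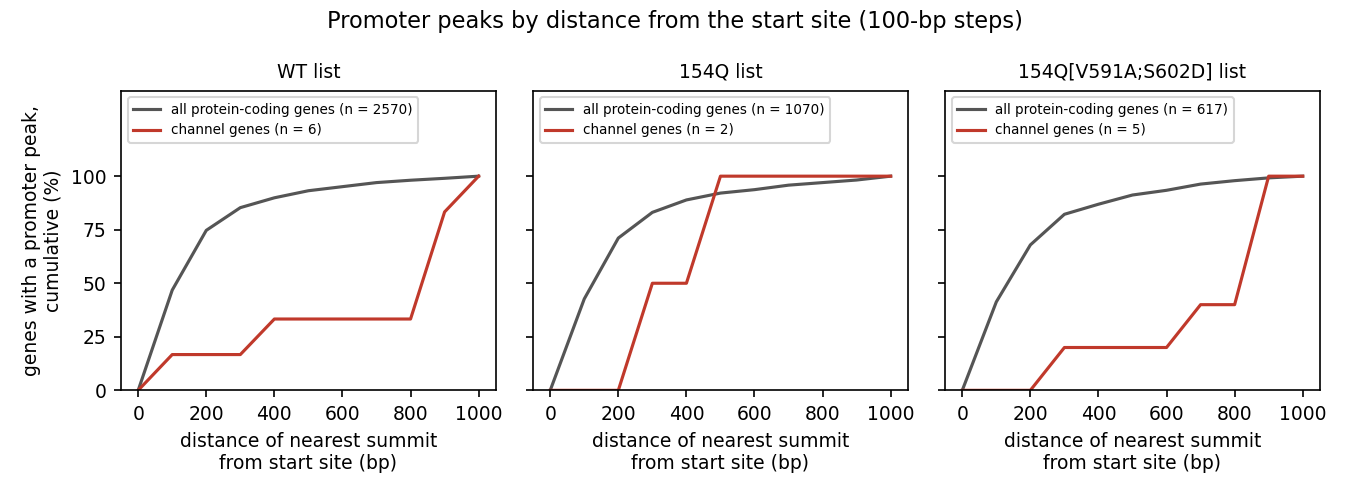
Cumulative share of genes with a promoter peak (y axis, %) by distance of the nearest summit from a start site (x axis, bp, in 100-bp steps), for channel genes and all protein-coding genes in each list. By 500 bp the curve of all genes has reached 93.2% (WT) and 91.2% (154Q[V591A;S602D]), and that of channel genes 33.3% and 20%.

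Among the potassium channel pore subunits of the voltage-gated group, 6 of 30 genes had a peak in some list (20%, against 18.0% of all protein-coding genes). Kcnb2, on chromosome 1 from 15287254 to 15723750 on the plus strand, encodes a delayed-rectifier subunit. Its shared site lay at position 15288147 (WT), 15288148 (154Q) and 15288121 (154Q[V591A;S602D]), which is 893, 894 and 867 bp downstream of the start site. It lies in the first intron but within 1 kb of the start site, and is counted among the promoter peaks. The peak had a −log10 q of 9.88 at rank 812 of the WT list, 72.7 at rank 33 of the 154Q list and 8.39 at rank 98 of the 154Q[V591A;S602D] list. It was the highest-ranked channel gene peak in both mutant lists, and in 154Q the next channel gene peak had rank 299. In WT the pileup was 38 fragments over a control background of 8.19, a fold enrichment of 4.24. The values for 154Q[V591A;S602D] were 34 over 7.1, a fold enrichment of 4.32. The octamer shown above began 26 bp before the WT summit, 27 bp before the 154Q summit and at the 154Q[V591A;S602D] summit itself. Kcnb2 had a lower-ranked second 154Q summit 410 bp upstream of the start site (rank 1143) and a second WT summit 304 kb downstream of a start site (rank 3584).

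Kcnc1, which encodes a fast-repolarising channel that allows neurons to fire at high rates, had a WT promoter peak 338 bp upstream of its start site (−log10 q 3.7, rank 2366) and no peak in the other lists.

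Kcnd3 and Kcnh1 had peaks in WT alone. Kcnd3, an A-type channel subunit, had an intron summit at rank 3364. Kcnh1, an ether-a-go-go channel subunit, had intron summits at ranks 2026 and 3921. None of the 10 silent or modifier subunits had a peak, against 1.58 expected in WT for genes of their length. Of 13 accessory subunits, Kcnip3, a calcium-binding partner of A-type channels, was the only channel gene listed in 154Q[V591A;S602D] alone, with a summit 231 bp from its start site in the first intron (−log10 q 3.52, rank 348). Kcnab3, an auxiliary beta subunit, had a WT summit 2311 bp upstream (−log10 q 6.63, rank 1314), but this summit lay 33 bp from a start site of Trappc1. In WT, 2.24 accessory genes were expected from length.

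The other potassium channels are inward rectifiers, tandem-pore leak channels and channels activated by calcium or sodium. Kcnj12, an inward rectifier, had WT summits 0.961, 2.46 and 7.78 kb from its start site (ranks 2307, 4170 and 2820) and 154Q summits at 7.23 and 16.2 kb (ranks 917 and 1028). All lay in its single intron, and the nearest pair of the 2 lists was 551 bp apart. Kcnj6, the G-protein-gated inward rectifier subunit mutated in the weaver mouse, had a WT intron summit at rank 4230. Among 14 tandem-pore leak channels, Kcnk3 had 3 WT intron peaks, the best with a −log10 q of 7.67 (rank 1120). Kcnk10 had WT summits 866 and 1093 bp from its start site (ranks 3869 and 1433) and 1 in a later intron (rank 2585), and a 154Q[V591A;S602D] summit 697 bp from the start site (−log10 q 2.3, rank 540), 169 bp from the nearest WT summit. Of 12 calcium- or sodium-activated channels, Kcnn1, a small-conductance subunit, had a WT peak 2466 bp upstream (rank 3074). By gene length, 2.63 inward rectifier genes, 2.42 leak channel genes and 2.54 activated channel genes were expected in WT, beside 2, 2 and 1 observed.

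Of the pore-forming calcium channel genes, 5 of 10 had a WT peak, against 2.39 expected for genes of their length. These are few genes, and the share is given without a test. Cacna1e, which encodes the R-type channel and lies on chromosome 1 from 154390731 to 154884501 on the minus strand, had the second site found in all 3 lists. The summits lay in its first intron at position 154861477 for WT (−log10 q 10.6, rank 745), 154861541 for 154Q (9.48, rank 299) and 154861463 for 154Q[V591A;S602D] (4.76, rank 231). These best summits fell within 78 bp of each other, and lay 2590, 2526 and 2604 bp from the nearest start site. The pileup was 35 fragments over a background of 6.59 for WT and 24 over 5.28 for 154Q[V591A;S602D]. Both backgrounds equal the lowest of their lists.

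Cacna1d, an L-type channel with a low activation threshold, had the highest-ranked WT peak of all channel genes, in the third intron at position 30218370 of chromosome 14. The −log10 q was 29.9 (rank 124), with 92 fragments over a background of 18.1. Neither of the other lists had a peak in this gene. Cacna1a, which encodes the P/Q-type channel that carries most calcium current of Purkinje cells, had 5 WT peaks. These lay 11.5, 70.7, 139 and 220 kb downstream of a start site in introns and 224 kb downstream in an untranslated exon, and the peak at 70.7 kb was the best (−log10 q 12.9, rank 554). The 154Q list had none, and 154Q[V591A;S602D] had a single summit 883 bp upstream of a start site (−log10 q 3.08, rank 398), 12.4 kb from the nearest WT summit. Thus the same gene was listed in WT and 154Q[V591A;S602D] at different positions.

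Cacna1c, another L-type channel, had a WT promoter peak with summits 856 and 984 bp from a start site (−log10 q 5.9, rank 1521) and a WT intron peak (rank 2641), while its 154Q summits, at positions 118713191 and 119106423 of chromosome 6, had ranks 1541 and 1102. The nearest WT and 154Q summits were 18.1 kb apart. Cacna1i, a T-type channel, had a WT intron summit at rank 2781. Among auxiliary subunits, Cacna2d2 (rank 4098) and Cacnb4 (−log10 q 3.24, rank 2540) had WT intron summits. Cacnb1 had a WT summit 4174 bp upstream (−log10 q 6.22, rank 1400) that lay 98 bp from a start site of Rpl19. Cacng7, a gamma subunit that also regulates AMPA receptors, had a WT summit 1121 bp upstream (rank 2933) and a 154Q[V591A;S602D] summit 867 bp upstream (−log10 q 2.03, rank 588), 254 bp apart.

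Of 10 pore-forming sodium channel genes, Scn8a and Scn2a had peaks (20%, against 18.0% of all genes), and 2.45 were expected in WT for genes of their length. Scn8a, the main sodium channel of Purkinje cell repetitive firing, lies on chromosome 15 from 100869858 to 101045938. Its intron site was at position 100910554 in WT (−log10 q 4.22, rank 2090) and 100910565 in 154Q (4.15, rank 781), 22.9 kb upstream of the nearest start site, with the octamer beginning 17 and 28 bp before the summit. A second 154Q summit lay at position 100910022 (rank 912). Scn2a had WT intron peaks 10.1 kb upstream of the nearest start site (−log10 q 6.8, rank 1282) and 14.9 kb downstream (rank 4060), and a 154Q summit 222 bp upstream (2.16, rank 1222), which was 9.87 kb from the nearest WT summit.

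**Figure D4:**
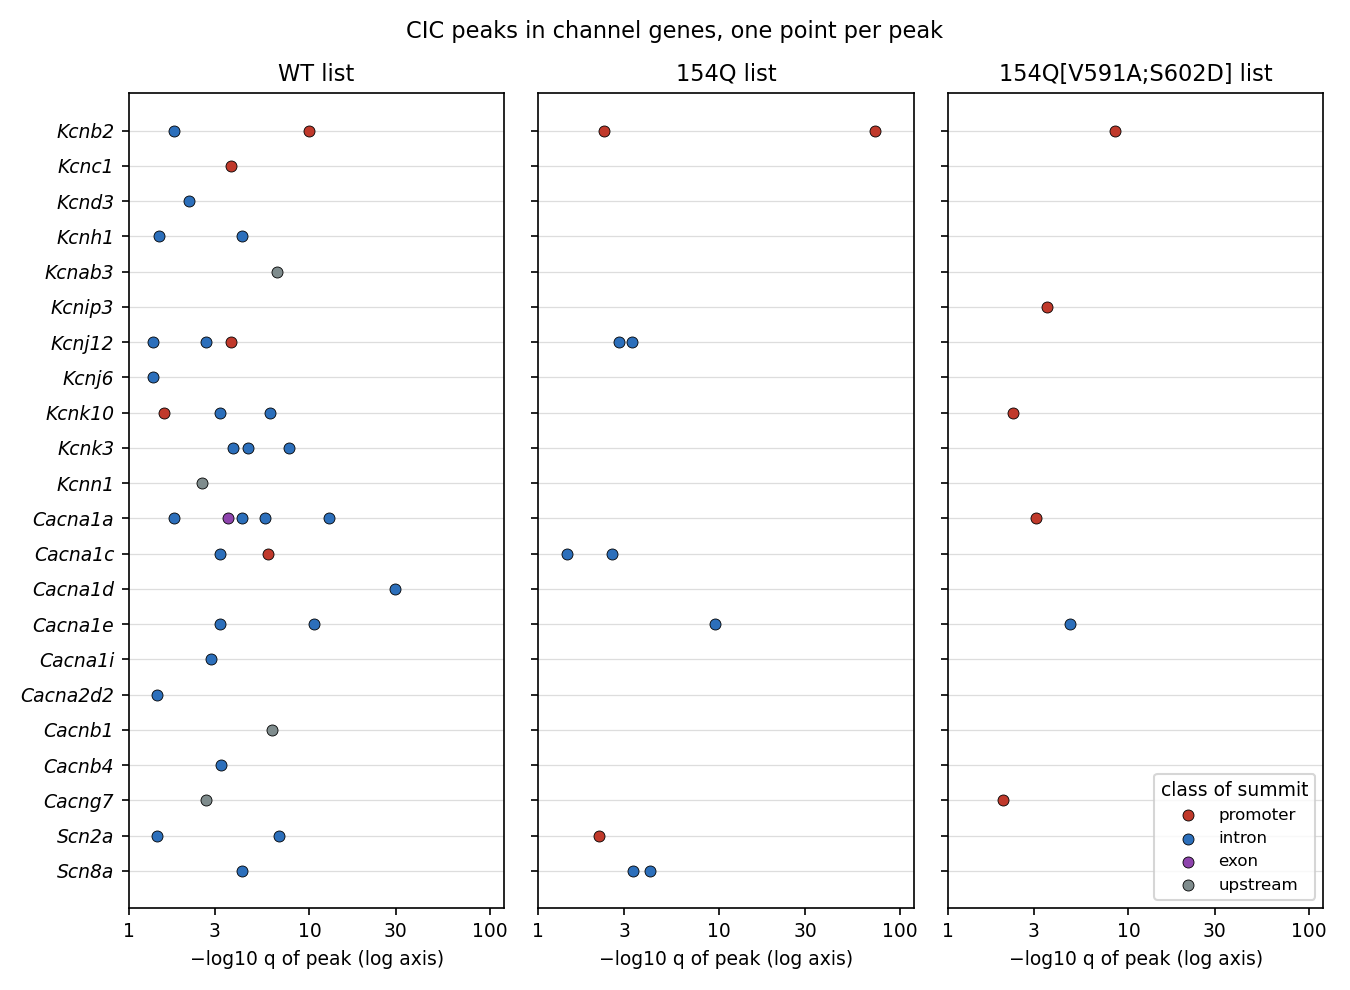
Each point is a CIC peak in a channel gene, by its −log10 q (x axis, logarithmic) in the WT, 154Q and 154Q[V591A;S602D] lists, coloured by the class of its best summit. The genes are grouped by family, and a few with a peak are not shown; Kcnb2 (72.7) stands to the right of all other points of the 154Q list and Cacna1d (29.9) of those of the WT list.

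A list of 20 genes that shape the firing of cerebellar neurons was also read. In WT, 7 of the 20 had a peak (35.0%, 18.1 to 56.7%), among them Cacna1a, Cacnb4, Kcnc1, Kcnd3, Scn2a and Scn8a. From length 4.47 were expected, a share of 22.3% that lay inside the interval, and 16.2% of all genes had a peak. In 154Q 3 of the 20 had a peak, Scn2a and Scn8a among them, against 1.98 expected and 6.96% of all genes. In 154Q[V591A;S602D] Cacna1a alone had one, against 0.939 expected and 3.72% of all genes. The 20 genes were chosen with earlier results of these data known, and these differences were not tested. Genes of the list without a peak included Cacna1g, Kcna1, Kcna2, Kcnd2, Kcnma1, Kcnmb4, Kcnn2, Kcnj10, Scn1a, Scn4b, Kcnk9 and Kcnab1.

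Channel genes were then compared across the lists. All 8 channel genes with a 154Q peak also had a WT peak. None of them was thus listed in 154Q and not in WT, against 18.9% of all genes with a 154Q peak. These are few genes, and the difference was not tested. When the lists were cut to the 848 highest-ranked peaks each, 2 of the 4 genes then left in 154Q, Scn8a among them, had none in WT, against 45.2% of all genes with a 154Q peak at that length. Of the 24 WT genes, 16 had no 154Q peak (66.7%, against 65.2% of all WT genes) and 19 had no 154Q[V591A;S602D] peak (79.2%, against 80.3%). Kcnb2 and Cacna1e had a peak in all 3 lists (1.45% of channel genes, against 2.37% of all genes).

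Sharing was lower by position than by gene. Summits within 250 bp were joined into 53 sites, of which WT held 41, 154Q held 12 and 154Q[V591A;S602D] held 6. Only 4 sites were in 2 or more lists, at Kcnb2, Cacna1e, Scn8a and Kcnk10. With summits joined within 100 bp there were 3 such sites, and within 500 bp there were 6. Of the 12 channel gene peaks of 154Q, 3 had a WT summit within 250 bp (25%, 8.89 to 53.2%), against 65.6% of all 154Q peaks. For intron peaks alone it was 2 of 9 (22.2%, 6.32 to 54.7%) against 54.8%. Of the 43 WT channel gene peaks, 3 had a 154Q summit within 250 bp (6.98%, 2.4 to 18.6%), against 24.7%, and for the 29 intron peaks it was 6.9% (1.91 to 22.0%) against 18.5%, inside the interval. For 154Q[V591A;S602D], 3 of 6 channel gene peaks had a WT summit nearby, against 70.9%, a share inside the interval of 18.8 to 81.2%. The median rank of channel gene peaks was 2540 against 2220 for all peaks of the WT list, 972 against 846 for 154Q and 373 against 424 for 154Q[V591A;S602D], where a higher number is a weaker peak. These differences were not tested, nor was the part of rank in the lower sharing.

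The octamer was present within 50 bp of a summit in 2 of 43 WT channel gene peaks (4.65%) against 3.0% of all WT peaks, in 2 of 12 154Q peaks (16.7%) against 7.28%, and in 1 of 6 154Q[V591A;S602D] peaks (16.7%) against 4.01%. These counts are the Kcnb2 and Scn8a sites above and are too few to separate from the background. In the RefSeq promoter sequences the octamer was present in 6 of 101 channel genes (5.94%), against 4.02% of 16522 genes. A match describes these letters only. Within introns, the numbered peaks of channel genes fell in the first intron in 13 of 29 cases in WT (44.8%, against 38.8% of all intron peaks). In 154Q they did in 7 of 9 (77.8%, against 39.9%). Kcnj12 and Kcnk3 have a single intron, so their intron peaks could only count as first. Some genes gave several of these peaks, and the shares were not tested.

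The 5 kb limit decided a few genes. Inside it was Cacnb1, with a WT summit 4174 bp upstream. Just outside it was Kcnk6, with a strong summit 5719 bp upstream in 154Q (−log10 q 33.2, rank 76) and 5747 bp upstream in WT (45.4, rank 59). The distance of this Kcnk6 summit from start sites of other genes is not given here, unlike that of Cacnb1. The repeat filter removed WT intron peaks at Cacna1e and Kcnk1, among others, and Kcnk1 had no other peak.

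A second list of 34 genes for proteins that anchor, modulate or work beside these channels was compared. In WT, 12 of 34 had an intron peak, against 4.23 expected from intron length. In 154Q 7 did, against 1.77 expected, and in 154Q[V591A;S602D] 4 did, against 0.624. This list was chosen with earlier results of these data known, and its difference from the channel genes was not tested. In 154Q, Sptbn4, a spectrin of the axon initial segment, had an intron summit at rank 36 (−log10 q 64.6) and Cntnap2, which clusters potassium channels along myelinated axons, one at rank 47 (51.0). Sptbn4 had that intron summit in WT too (25.9, rank 181), and none there in 154Q[V591A;S602D]. Its promoter summit was in all 3 lists, at ranks 265 (WT), 81 (154Q) and 33 (154Q[V591A;S602D]). Cntnap2 had no peak in WT or 154Q[V591A;S602D]. Fgf14, a modulator of sodium channels mutated in an inherited ataxia, had intron summits in all 3 lists, at ranks 107, 593 and 175. Glutamate and GABA receptor genes, another group of long neuronal genes, had WT intron peaks at 7 of 48 genes against 5.4 expected and WT promoter peaks at 4 against 6.05 expected. In 154Q they had 2 intron genes against 2.25 expected and no promoter gene against 2.51 expected.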

How the data were processed

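The authors trimmed reads (Trimmomatic 0.36), aligned them with Bowtie2 2.3.4.1 to mm10 (GRCm38) and a spike-in genome, kept short fragments, removed blacklisted regions, merged the replicates of a genotype (SAMtools 1.10, bedtools 2.29.1) and called peaks with MACS3 against merged CIC KO; tool names come from the submitters' processing notes and the methods. For WT and 154Q[V591A;S602D] the deposited lists give a fold enrichment, a ratio of pileup to background at the summit, each plus 1. They also give the −log10 p-value and −log10 q-value per summit, and the deposited 154Q list gives 1-bp summits with −log10 q only. Spike-in scaling is not stated for these lists. The authors' repeat filter had been applied to the deposited 154Q list alone, so WT and 154Q[V591A;S602D] peaks with over 50% soft-masked bases were removed here.

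Summits on chromosomes 1 to 19, X and Y were assigned to every gene they touched, so 1 summit can count for several genes. Expected counts sum, over the members, the share of all protein-coding genes with a peak in the same one of 10 length classes. Whole fragment pileups were recovered by matching both the fold enrichment and the Poisson −log10 p (tolerance 0.001, reached for 99.9% of WT and all 154Q[V591A;S602D] summits). The scripts were tested on simulated data. Analyses used Python with pandas and scipy. Named genes are those with peaks in 2 or 3 lists, the 10 strongest per list and the list of 20 excitability genes; further genes were named by family. Members and lists were chosen with earlier results of these data known. The 30 H3K27ac and IgG samples were not analysed here. Alternatives were no repeat filter, a q under 0.001, equal list lengths, the strongest summit only, other distances, windows and length classes, and promoter GC. A few channel genes are included in the counts but not reported by name here.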

Additional observations from a re-analysis of the deposited data

How the results depend on the processing

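Of 105 comparisons with an alternative setting, 88 stayed within 1.5 times the count or within the interval of the ratio, and 17 did not. With every list cut to its first 848 peaks by rank, channel genes with any peak numbered 4 in WT and 4 in 154Q, promoter genes 1 and 1, intron genes 3 and 3, genes in 154Q and not in WT 2, and sites in 2 or more lists 2. At a q under 0.001 the WT intron genes were 11, the 154Q genes 5 with 1 promoter gene, and the 154Q[V591A;S602D] promoter genes 3. With promoters limited to 500 bp the WT promoter genes were 2 (ratio 0.128), and the 154Q[V591A;S602D] promoter and intron genes were 1 (ratio 0.275) and 4. Fewer peaks or a narrower promoter follow from these settings by construction. Under every alternative run, the WT and 154Q promoter ratios stayed below 1 (0.128 to 0.43 and 0.155 to 0.304) and the WT and 154Q intron ratios above 1 (1.56 to 1.72 and 1.26 to 1.5), whereas the 154Q[V591A;S602D] ratios fell on both sides of 1. The side of 1 is not the interval: the WT intron expectation lay inside the Wilson interval of the count at a q under 0.001 (6.71, interval 6.22 to 18.9) and at equal list lengths (1.79, interval 1.02 to 8.55), as did the WT promoter expectation at equal list lengths (4.52, interval 0.177 to 5.51). For 154Q both expectations lay inside under every alternative but the promoter GC match. No paired analysis was possible because replicates were merged before peaks were called, and no animal could be left out for the same reason. A summit held 30 fragments at the median for WT and 27 for 154Q[V591A;S602D], no pileup was given for 154Q, and the effect of depth on the counts was not tested.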
